A study of Mus musculus with 2 samples.

Results

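Interleukin 6 and interleukin 10 are secreted proteins that both act through STAT3, and 8 genes of this signaling were followed across the cells of MC38 mouse tumors: the ligands Il6 and Il10, the receptor chains Il6ra, Il6st, Il10ra and Il10rb, the transcription factor Stat3 and the feedback inhibitor Socs3. They were taken by gene symbol from the 32285 genes of 2 single-cell RNA libraries, and all 8 had counts in both. One library came from tumors of wild-type (Lmo7+/+) hosts and 1 from tumors of hosts labelled as knockout (Lmo7-/-). The hosts were young adult female mice on the C57BL/6 background, with Lmo7 deleted in the whole body rather than in 1 cell type, and all carried a subcutaneous graft of MC38, an established mouse colon carcinoma line that was not itself deleted for Lmo7; no treatment is named for these tumors. Tumors were dissociated with heat and sorted for live cells, and how many mice went into each library is not given in the sources used here.

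Interleukin 6 binds its receptor chain Il6ra, which is found on some leukocytes and hepatocytes and can also be shed in soluble form, and the complex then engages Il6st (gp130), the signaling chain shared by the whole interleukin 6 family. Interleukin 10 binds Il10ra, a chain largely kept to blood cells, together with the widely expressed Il10rb. Both complexes activate JAK kinases that phosphorylate STAT3, and STAT3 induces Socs3, which blocks signaling through gp130 but not through the interleukin 10 receptor. In tumors, interleukin 6 is best known as a product of fibroblasts and activated myeloid cells, and interleukin 10 as a product of macrophages and regulatory T cells.

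On the GRCm38 (mm10) assembly, with GENCODE M21 annotation, all 8 genes are protein coding. The ligand genes lie at chr5:30013114-30019981 on the plus strand (Il6) and chr1:131019845-131024974 on the plus strand (Il10). Receptor genes lie at chr3:89864059-89913196 on the minus strand (Il6ra), chr13:112464070-112510086 on the plus strand (Il6st), chr9:45253837-45269149 on the minus strand (Il10ra) and chr16:91406164-91425834 on the plus strand (Il10rb). Stat3 and Socs3 share a chromosome, at chr11:100885098-100939540 and chr11:117966079-117970047, both on the minus strand. Upstream sequence of 5 of the 8 genes was found in the RefSeq promoter table (GRCm38.p6), and the 250 bases before each annotated start were searched on both strands for 4 motifs. A STAT element (TTCNNNGAA) is in 7.02% of 32851 such windows, an AP-1 element (TGANTCA) in 6.75%, a C/EBP element (TTGNNCAA) in 5.65% and an NF-kappaB element (GGGA and TCC set 3 bases apart) in 3.86%. The windows of the gene at each end of the pathway, ligand and feedback inhibitor, are shown because they held such letters. For Il6 (chr5:30012864-30013113, plus strand) the capitals mark, in order, an AP-1 element, a C/EBP element and 2 overlapping NF-kappaB matches on opposite strands; for Socs3 (chr11:117969457-117969616, minus strand, 250 to 91 bases before the RefSeq start and inside the longer GENCODE gene) they mark the STAT element.
Il6: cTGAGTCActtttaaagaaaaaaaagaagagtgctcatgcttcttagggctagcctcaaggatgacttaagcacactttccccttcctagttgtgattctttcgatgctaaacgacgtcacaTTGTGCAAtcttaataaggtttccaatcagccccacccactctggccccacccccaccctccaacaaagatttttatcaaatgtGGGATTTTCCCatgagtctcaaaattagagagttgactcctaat
Socs3: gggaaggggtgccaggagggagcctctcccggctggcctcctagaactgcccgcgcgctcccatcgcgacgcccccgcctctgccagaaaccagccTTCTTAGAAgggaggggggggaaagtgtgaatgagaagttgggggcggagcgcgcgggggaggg
The STAT element starts 154 bases before the Socs3 start, and the Il6 motifs start 249, 128 and 44 bases before the Il6 start. No STAT element was found in the windows of Il6, Il6ra, Il6st or Stat3, which says only that these letters are not there. The other genes, Il10, Il10ra and Il10rb, are named only.

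Of 16208 and 15163 droplets, 13542 and 11860 cells passed the filters of at least 500 genes, at least 1000 unique molecules (UMIs) and at most 15% mitochondrial UMIs. Both numbers are above the roughly 10000 cells named as input for each library, and the reason was not tested. Here and below, paired values are given in the order Lmo7+/+ library, then library labelled Lmo7-/-. Cells were put into classes by marker gates, and levels are CPM, the UMIs of a gene over all UMIs of a class scaled to 1000000, with exact 95% Poisson intervals that cover counting error only. There was 1 library per genotype, so no difference between them could be tested and cells were not treated as replicates; a ratio between libraries describes these libraries and not the genotypes. In total 279 cell barcodes occurred in both libraries, 227 and 214 of them in kept cells. The targeted gene did not check the label: Lmo7 had 16 and 15 UMIs in macrophages (0.812 and 0.743 CPM) and 18 and 11 UMIs in endothelial cells (44.7 and 32.8 CPM), while MC38 tumor cells, which keep the gene, had 1174 and 686 UMIs (19.6 and 15.8 CPM). Which exons the deletion removes is not given in the sources used here, and UMIs from the rest of the gene would not show it.

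The gates gave 7 classes of at least 50 cells in each library, namely tumor (6710 and 4981 cells), macrophage (3463 and 4094), monocyte (842 and 670), T (450 and 638), dendritic (211 and 154), fibroblast (83 and 69) and endothelial (82 and 63). All 12 macrophage, 10 monocyte, 12 dendritic, 10 T, 10 fibroblast and 10 endothelial markers reached 5 CPM in their own gate in both libraries. In the tumor gate only 4 and 3 of 14 epithelial markers did so, and the reason was not tested. This gate was set by upper limits on markers of other classes and did not use the epithelial list. Fibroblast markers summed to 1245 and 1299 CPM in it, beside 682 and 595 CPM for the epithelial list. Median UMIs per cell ran from 2294 (T) to 5655 (tumor) in the Lmo7+/+ library and from 2277 (T) to 5684 (tumor) in the library labelled Lmo7-/-; 1567 and 1099 cells fell in no gate.

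Il6 was highest in stromal cells. Fibroblasts held 576 CPM (508 to 651) and 483 CPM (416 to 557), and endothelial cells 395 CPM (336 to 462) and 220 CPM (173 to 277). The next class was the monocytes, at 13.8 CPM (10.0 to 18.6) and 24.3 CPM (18.4 to 31.4), and macrophages were at 2.49 and 2.87 CPM. Fibroblasts thus stood 232-fold and 168-fold above macrophages. In each library the intervals of fibroblasts, endothelial cells and monocytes did not overlap their neighbours in the order, whereas tumor, macrophage, dendritic and T cells, all between 0.741 and 4.52 CPM, were mostly not separated from each other.

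**Figure D1:**
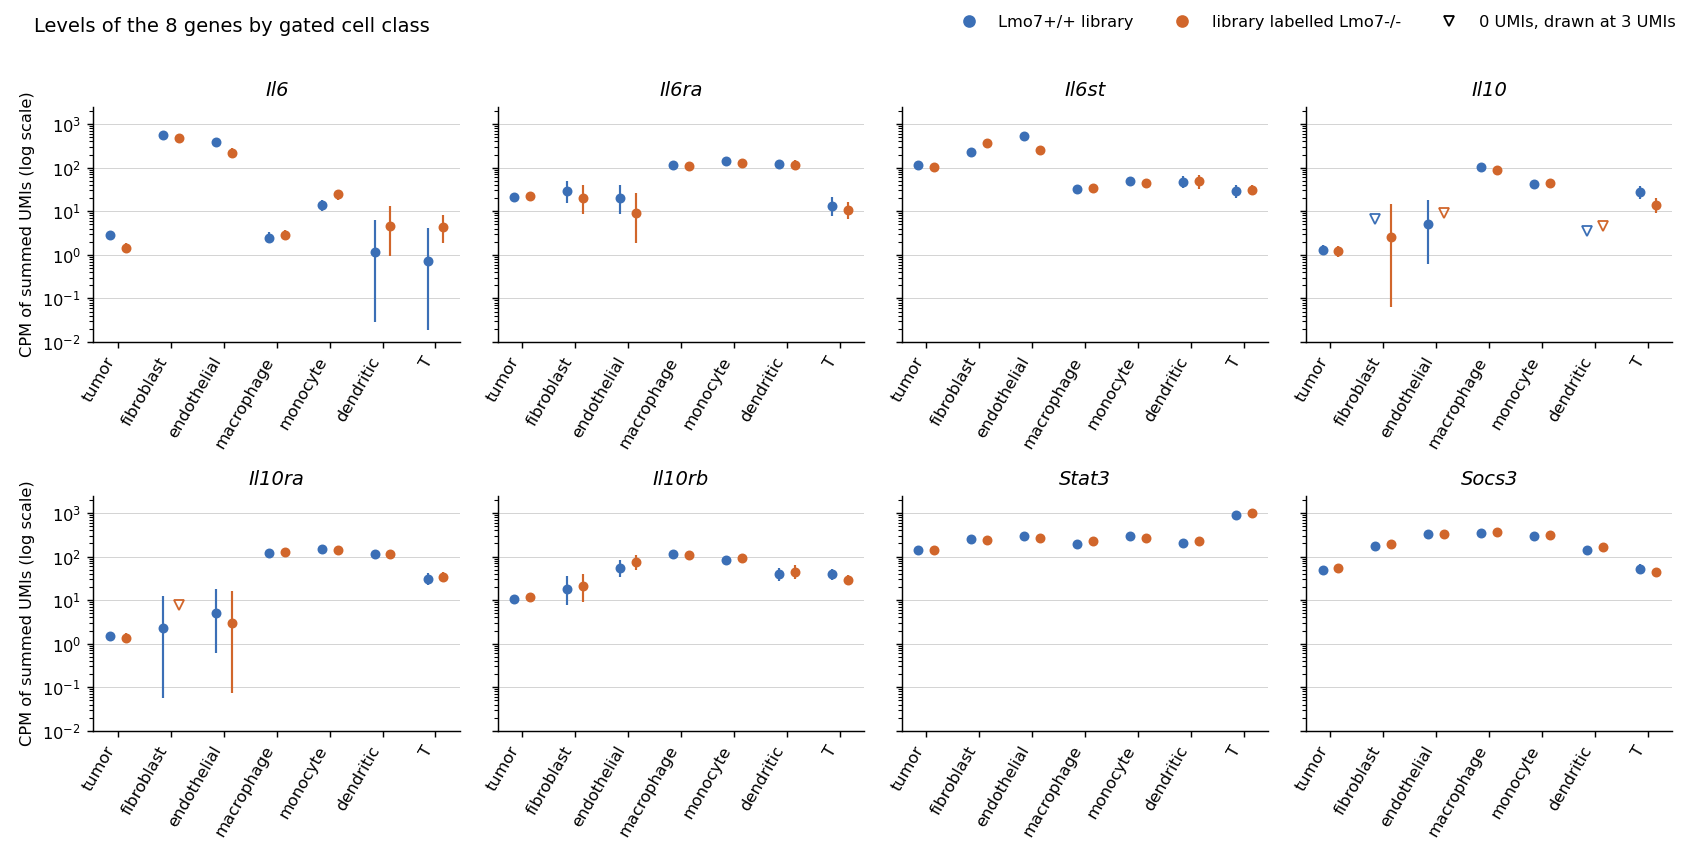
CPM of each gene (log axis) in 7 gated classes, with 1 point per library and exact 95% Poisson intervals from counting error; open triangles mark classes with 0 UMIs, drawn at 3 UMIs. Il6 and Il6st peak in fibroblasts and endothelial cells, Il6ra, Il10, Il10ra and Il10rb in myeloid cells, and Stat3 in T cells.

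Within the stroma Il6 UMIs were unevenly spread over cells. In the fibroblast gate 29 of 83 cells and 36 of 69 cells had any Il6 UMI (34.9% and 52.2%), and the 3 highest cells held 53.5% and 34.0% of all UMIs of the gene. The single highest fibroblast had 70 UMIs in the Lmo7+/+ library and 25 in the other. Endothelial cells were similar in shape: 20 of 82 and 18 of 63 cells had an Il6 UMI (24.4% and 28.6%), the highest cells held 30 and 18 UMIs, and 3 cells carried 51.6% and 58.1%. With every cell thinned to 1500 UMIs, which left out 21 and 14 fibroblasts and 11 and 10 endothelial cells, Il6 was seen in 24.2% and 40% of fibroblasts and in 19.7% and 13.2% of endothelial cells. The T gate, a class not expected to make much interleukin 6, showed 0.287% and 0.413% after the same thinning, at median depths of 2294 and 2277 UMIs against 3568 and 3936 in fibroblasts. Tumor cells (0.582% and 0.279%) and macrophages (0.28% and 0.351%) had intervals that overlapped those of T cells, as did monocytes (0.832% and 1.08%). The T shares rest on a few positive cells among 349 and 484, so their intervals are wide. Overlap with them therefore does not show that a class is at background.

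**Figure D2:**
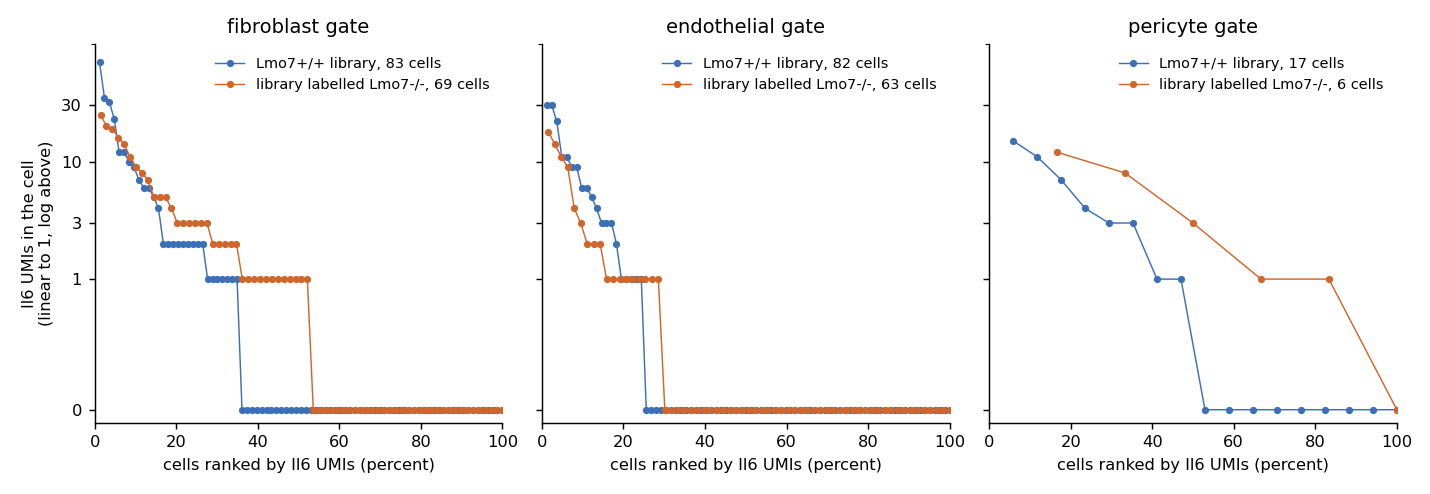
Il6 UMIs in each cell of the fibroblast, endothelial and pericyte gates, ranked from the highest, with rank as a percent of the gate's cells on the x axis and UMIs on a y axis that is linear to 1 and logarithmic above. In fibroblasts and endothelial cells of both libraries most cells are at 0 to 1 UMI and a short left-hand tail reaches 18 to 70 UMIs.

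Summed over all cells, Il6 had 806 and 627 UMIs. The fibroblast, endothelial and pericyte gates together were 1.34% and 1.16% of the cells but held 57.1% (53.6 to 60.5) and 45.8% (41.8 to 49.8) of these UMIs. Tumor cells, 49.5% and 42.0% of all cells, held 20.7% and 10.0%, and macrophages with monocytes, 31.8% and 40.2% of all cells, held 11.4% and 18.3%. Cells in no gate held 8.81% and 22.6%. When clusters replaced the gates, the fibroblast and endothelial clusters (no cluster was named for pericytes) held 59.7% (56.2 to 63.1) and 70.7% (66.9 to 74.2) of Il6 UMIs, so the order of the libraries was the opposite of that by gate and no direction is given.

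Il10 had a different source. Macrophages held 103 CPM (98.2 to 107) and 86.8 CPM (82.8 to 91.0), monocytes 42.4 and 45.1 CPM, and T cells 27.4 and 13.9 CPM. Dendritic cells had 0 UMIs of the gene in either library (limits of 3.44 and 4.52 CPM at 3 UMIs), fibroblasts 0 and 1 UMI, and endothelial cells 2 and 0. The macrophage gate held 82.0% (80.4 to 83.5) and 84.2% (82.5 to 85.7) of 2464 and 2083 Il10 UMIs, and monocytes added 5.36% and 5.09%. A UMI of Il10 was seen in 19.7% and 16.8% of macrophages, or 9.46% and 8.31% after thinning, against 0.325% and 0.302% of thinned tumor cells at median depths of 5225 and 4421 UMIs for macrophages and 5655 and 5684 for tumor cells.

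**Figure D3:**
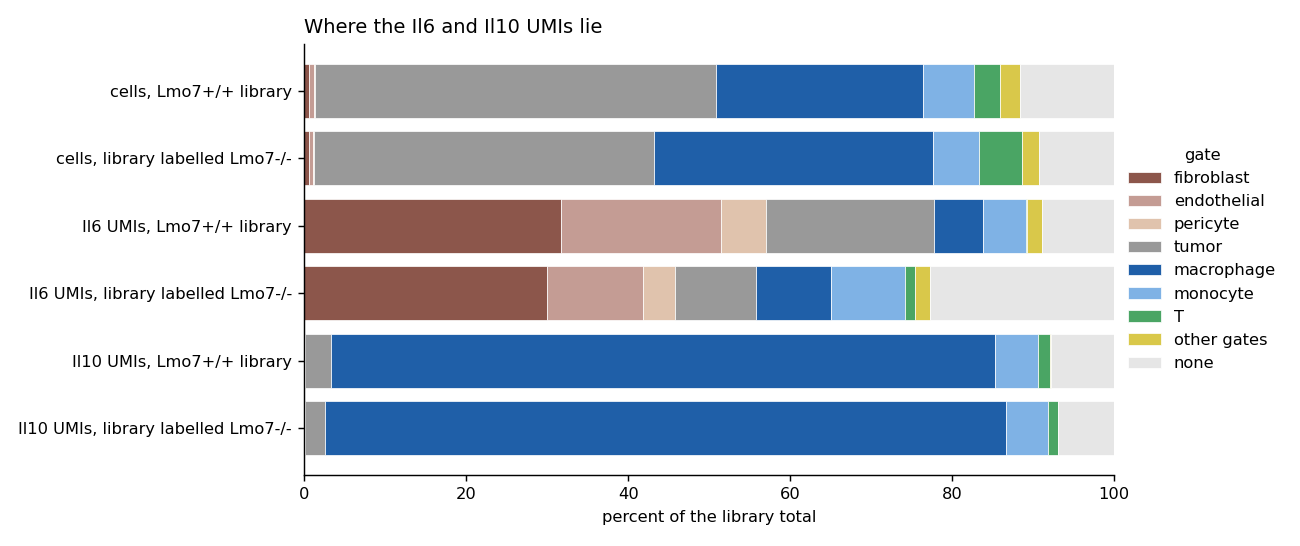
Stacked bars give the percent of all kept cells, of all Il6 UMIs and of all Il10 UMIs that lies in each gate, 1 bar per library. The stromal gates are barely visible among cells yet hold 57.1% and 45.8% of Il6 UMIs, and macrophages hold 82.0% and 84.2% of Il10 UMIs.

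Among T cells, few Il10 UMIs lay in CD8 cells. Cells with a Foxp3 UMI (44 and 48, regulatory T cells by this marker) held 10 and 17 Il10 UMIs, or 87.3 CPM (41.9 to 160) and 128 CPM (74.7 to 205). Conventional CD4 cells (41 and 52) held 9 and 6 UMIs, or 106 and 42.5 CPM, and CD8 cells (295 and 466) held 3 and 0 UMIs. T cells assigned to none of these subsets (61 and 65) held 15 and 3 UMIs, most of them in 3 cells or fewer. A log2 ratio is here always the library labelled Lmo7-/- over Lmo7+/+. For all T cells the Il10 ratio was -0.98 (-1.76 to -0.22) on 37 and 26 UMIs, and the 3 highest cells held 45.9% and 57.7% of them. Without the 3 highest cells of each library it was -1.33 (-2.54 to -0.20) on 20 and 11 UMIs. With cells thinned to 1500 UMIs it was -0.02.

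Il10 varied widely among macrophages. The clusters used here were built without the 8 genes, and 7 of them were macrophages. A cluster led by Retnla, Folr2, Ccl6 and Ccl8 (104 and 95 cells) held 257 CPM (216 to 303) and 243 CPM (199 to 293), and one led by Ccl8, H2-M2, Il18bp and Apoe (487 and 1069 cells) held 251 CPM (233 to 269) and 146 CPM (137 to 156). At the other end, a cluster led by Fcrls and Cx3cr1 (828 and 581 cells) held 31.0 and 28.0 CPM. The order of these 3 clusters was the same in both libraries, and in the library labelled Lmo7-/- the intervals of all 3 were apart.

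Il10 also followed MHC class II, the molecules that present antigen to CD4 T cells. Over both libraries, the 25% of macrophages with the highest share of H2-Aa, H2-Ab1, H2-Eb1 and Cd74 UMIs held 200 CPM (182 to 218) and 119 CPM (111 to 127), against 77.1 and 65.2 CPM in the lower 50%, a log2 difference of 1.37 (1.21 to 1.53) and 0.87 (0.71 to 1.03). For the other 7 genes the same difference stayed between -0.60 and 0.34. The upper 25% is a range and not a cell type, with 1180 cells within 10% of its limit, and it held 484 of 3463 and 1406 of 4094 macrophages. Cycling macrophages, by the same kind of split, held less Il10 than non-cycling ones, 64.1 against 135 CPM and 62.9 against 95.9 CPM. The gradient was not particular to MHC class II. By a list of interferon-induced genes the upper 25% also held more Il10 than the lower 50%. The log2 differences were 0.90 (0.75 to 1.04) and 0.63 (0.47 to 0.79). By Arg1, Mmp12, Gpnmb, Spp1 and Hmox1 they were 0.59 (0.43 to 0.74) and 0.05 (-0.12 to 0.22).

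Because the mixture of macrophages differed, the Il10 ratio between libraries was also taken within ranges and clusters. Over the whole gate it was -0.24 (-0.33 to -0.15), with 2021 and 1753 UMIs. In the upper 25% for MHC class II it was -0.75 (-0.91 to -0.58), and in the lower 50% it was -0.24 (-0.40 to -0.09). It was -0.72 (-0.90 to -0.54) in the upper 25% for Arg1, Mmp12, Gpnmb, Spp1 and Hmox1, and -0.03 (-0.24 to 0.18) in the upper 25% for cycling genes. Of 7 macrophage clusters, 6 had a ratio below 0, down to -0.87 (-1.18 to -0.57) in the cluster led by Hspa1a, Hspa1b, Mmp12 and Arg1, and the cluster led by Cd300e and Klra17 had 0.57 (0.18 to 0.97). In monocytes the ratio was 0.09 (-0.29 to 0.47) by gate and -0.93 (-1.29 to -0.57) by cluster, so no direction is given for them.

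**Figure D4:**
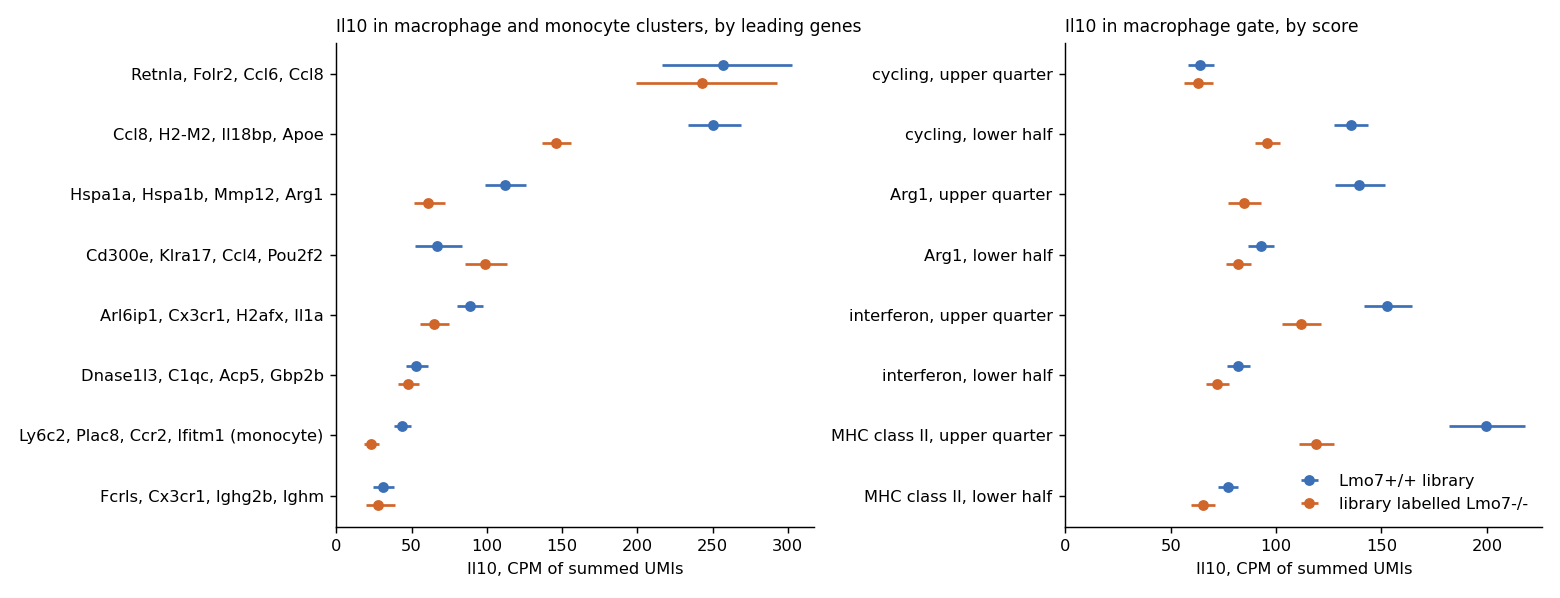
Il10 CPM with exact 95% Poisson intervals, by macrophage and monocyte cluster named by leading genes (left) and by range of a marker score within the macrophage gate (right), for both libraries. In the ranges by score the Lmo7+/+ library is the higher one throughout, with overlapping intervals in the upper 25% for cycling and in the lower 50% for interferon and for Arg1, and by cluster the Cd300e cluster is the exception.

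The 2 receptors had different maps. Il6ra, the binding chain for interleukin 6, was at 141 and 126 CPM in monocytes, 121 and 118 CPM in dendritic cells and 113 and 108 CPM in macrophages, and these 3 classes overlapped in their intervals at each step of the order. The remaining classes lay between 8.94 and 29.3 CPM. Il6st, the signaling chain, had a different order: endothelial cells held 530 CPM (461 to 606) and 256 CPM (205 to 316), fibroblasts 230 CPM (187 to 279) and 360 CPM (303 to 425), and tumor cells 116 and 105 CPM, whereas macrophages held 33.2 and 34.9 CPM and T cells 28.9 and 31.0 CPM. Both chains were seen in the same cell in 7.59% and 6.35% of macrophages and in 10.3% and 10.3% of tumor cells. At 1500 UMIs per cell these shares were 0.716% and 0.89% of macrophages and 0.548% and 0.697% of tumor cells, with overlapping intervals.

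The interleukin 10 receptor paired a chain largely kept to leukocytes with a wider one. Il10ra, its binding chain, was at 149 and 145 CPM in monocytes, 122 and 124 CPM in macrophages, 117 and 112 CPM in dendritic cells and 30.4 and 34.7 CPM in T cells. Tumor cells held 1.53 and 1.36 CPM, fibroblasts 1 and 0 UMIs and endothelial cells 2 and 1 UMIs. Il10rb, the partner chain shared with other cytokines of the family, was highest in macrophages (116 and 110 CPM) and lowest in tumor cells (10.5 and 11.9 CPM). It reached 54.7 and 74.5 CPM in endothelial cells, beside 40.1 and 45.2 CPM in dendritic cells and 39.3 and 28.9 CPM in T cells. Both chains were seen together in 21.6% and 17.6% of macrophages, or 2.02% and 2.24% after thinning, and in 0.209% and 0.201% of tumor cells. In thinned fibroblasts no cell had a UMI of both; 0 of 62 and 0 of 55 cells allow a share of cells with UMIs of both of up to 4.84% and 5.45%, taken as 3 cells of the total.

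Stat3, the transcription factor on which both receptors converge, was detected in every class and was highest in T cells, at 893 CPM (843 to 945) and 992 CPM (947 to 1038). CD8 cells held 951 and 1005 CPM, conventional CD4 cells 766 and 1085 CPM and regulatory T cells 576 and 837 CPM. A pair of small gates, mature dendritic cells (31 and 26 cells) and NK cells (65 and 38 cells), were also high, at 795 and 922 CPM and at 741 and 595 CPM. Macrophages held 192 CPM (186 to 198) and 225 CPM (218 to 232), and tumor cells were lowest among the large classes at 141 and 144 CPM. T cells were 4.65-fold and 4.41-fold above macrophages.

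Socs3, the feedback inhibitor that binds gp130 and JAK, had another order. Macrophages held 348 CPM (340 to 357) and 356 CPM (348 to 365), endothelial cells 323 and 334 CPM and monocytes 297 and 305 CPM, with neighbours overlapping. T cells, which led for Stat3, were at 52.6 and 44.9 CPM, and tumor cells at 48.0 and 53.5 CPM; T cells lay 0.151-fold and 0.126-fold of the macrophage level. A Socs3 UMI was seen in 38.9% and 39.5% of thinned macrophages and in 6.02% and 6.2% of thinned T cells.

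Between classes, 5 of the 8 genes (Il6ra, Il10, Il10ra, Il10rb and Socs3) were over 2-fold higher in macrophages than in tumor cells in both libraries, where 15.9% of 13629 genes were, and 1 (Il6st) was over 2-fold lower, where 32.3% were. From fibroblasts to macrophages, 2 (Il6 and Il6st) were higher in fibroblasts (13.7% of all genes) and 4 lower (21.1%). In endothelial cells the same 2 were higher than in macrophages (14.8%) and 3, namely Il6ra, Il10 and Il10ra, were lower (15.5%). T cells were higher for Stat3 alone (12.5%) and lower for 5 genes (14.9%).

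The 8 genes were next compared between the libraries. Counting genes with at least 20 UMIs, 0 of 8 passed 2-fold in macrophages, where 2.62% of all genes did (1.33% higher and 1.29% lower in the library labelled Lmo7-/-). There were also 0 of 8 in tumor cells, where 3.09% of all genes did (1.5% higher, 1.6% lower), and 0 of 8 in monocytes, with 3.2% (1.7% and 1.5%). In dendritic cells there were 0 of 6, with 5.03% (1.81% and 3.22%), in T cells 0 of 7, with 3.92% (1.28% and 2.64%), and in fibroblasts 0 of 5, with 7.8% (2.8% and 5%). In endothelial cells 1 of 5 passed, Il6st, which was lower, where 7.89% of all genes passed (3.16% higher and 4.73% lower). Over these classes the median of all genes lay between -0.10 and -0.02 on the log2 scale.

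**Figure D5:**
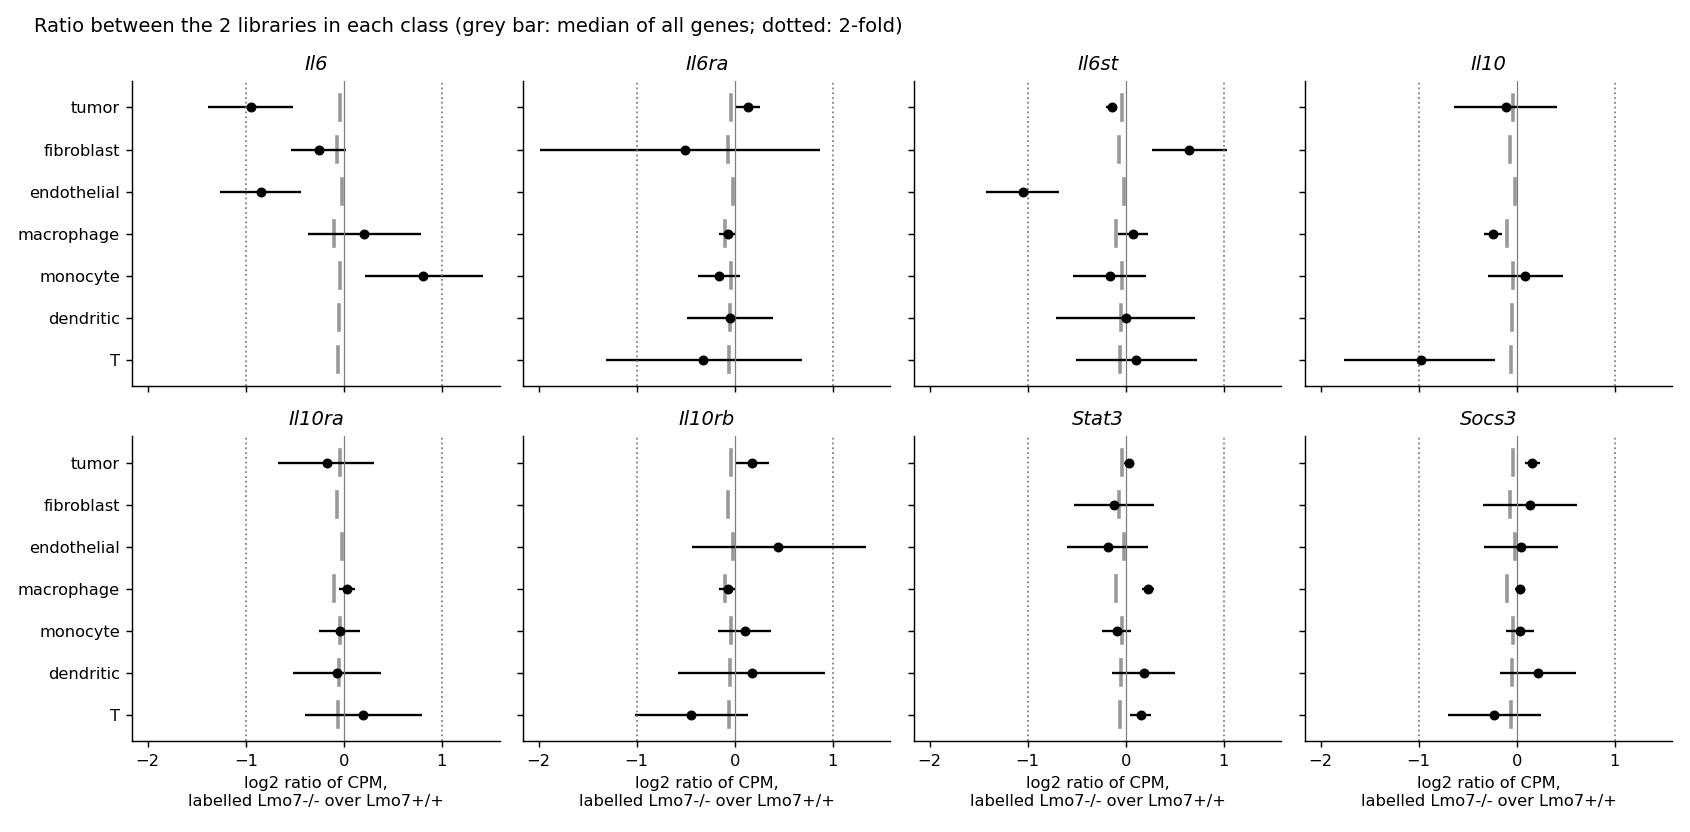
Log2 ratio of CPM, library labelled Lmo7-/- over Lmo7+/+, for each gene with at least 20 UMIs in a class, with exact 95% intervals for the split of UMIs; grey bars mark the median of all genes and dotted lines a 2-fold ratio. Most points lie near the grey bars, and Il6 and Il6st in endothelial cells, Il6 in tumor cells and monocytes, and Il10 in T cells lie farther out.

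In macrophages the receptor chains were at log2 ratios of -0.07 (-0.16 to 0.02) for Il6ra, 0.07 (-0.08 to 0.23) for Il6st, 0.03 (-0.05 to 0.11) for Il10ra and -0.07 (-0.16 to 0.01) for Il10rb. Socs3 was at 0.03 (-0.01 to 0.08). Stat3 was slightly higher in the library labelled Lmo7-/-, at 0.23 (0.16 to 0.29), and its ratio was between 0.03 and 0.29 in all 7 macrophage clusters. In T cells Stat3 was at 0.15 (0.05 to 0.26), on 1205 and 1856 UMIs.

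Il6 was lower in endothelial cells of the library labelled Lmo7-/-, with 159 and 74 UMIs and a ratio of -0.84 (-1.26 to -0.44), and -1.03 (-1.68 to -0.41) without the 3 highest cells of each library. Il6st was also lower there, with 213 and 86 UMIs and a ratio of -1.05 (-1.43 to -0.68), but 1 endothelial cell of the Lmo7+/+ library held 54 UMIs, and without the 3 highest cells of each library the ratio was -0.53 (-0.98 to -0.09). Marker lists named for other classes also differed between the libraries in this gate. T markers summed to 162 CPM (9 of 10 with counts) and 17.9 CPM (4 of 10). The epithelial list summed to 1785 (6 of 14) and 1198 CPM (3 of 14). These sums lie above the 682 and 595 CPM of the same list in the tumor gate itself. Macrophage markers summed to 296 (11 of 12) and 480 CPM (10 of 12), and fibroblast markers to 1017 and 1558 CPM (9 of 10 in each). The part of these lists in the result was not tested.

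For fibroblasts no direction is given for Il6. The ratio was -0.25 (-0.53 to 0.02) by gate, 0.47 (0.24 to 0.70) by cluster and 0.19 (-0.19 to 0.56) without the 3 highest cells of each library. For Il6st the library labelled Lmo7-/- was the higher one, at 0.65 (0.27 to 1.03) by gate, on 102 and 140 UMIs, and 0.64 (0.32 to 0.96) by cluster. Macrophage markers in the fibroblast gate summed to 369 and 283 CPM (10 of 12 with counts in each). Endothelial markers summed to 99.0 (5 of 10) and 149 CPM (4 of 10). Monocyte markers summed to 4065 (9 of 10) and 4671 CPM (5 of 10). The same monocyte list summed to 4731 and 4200 CPM in the monocyte gate itself, so its sum did not separate these gates. The part of these lists in the ratios was not tested.

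In monocytes Il6 was at a ratio of 0.81 (0.22 to 1.42) on 43 and 57 UMIs, of which 3 cells held 55.8% and 63.2%; without them the ratio was 0.55 (-0.41 to 1.53), and by cluster it was 0.29 (-0.47 to 1.04). Fibroblast markers in this gate summed to 1091 and 999 CPM (10 of 10 in each). Tumor cells held 167 and 63 Il6 UMIs, a ratio of -0.94 (-1.38 to -0.52). One of 9 tumor clusters, led by Igfbp5, Slpi, Col6a2 and Ptn (1203 and 549 cells), held 141 and 22 Il6 UMIs, and the other 8 held 19 or fewer each in either library. The tumor clusters were unevenly split, with 26.4% to 76.2% of a cluster's cells from the library labelled Lmo7-/-. Il6 in tumor cells was at thinned shares of cells whose intervals overlapped those of T cells, which are too wide to decide whether it is background.

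The wider pathway was read mainly in macrophages from lists of other genes, each gene with at least 20 UMIs counted. The lists were chosen with earlier results of these data known, so their counts describe them and are not a test. The counts past 2-fold stand beside 1.33% of all macrophage genes that were higher and 1.29% that were lower, and the lists are short, so a count of 1 is not a result about a list. Of the ligands of the interleukin 6 family, 6 of 10 could be counted: Il27 was over 2-fold higher (3.71 and 7.53 CPM, ratio 1.02, 0.61 to 1.44) and Cntf over 2-fold lower (2.08 and 0.99 CPM, ratio -1.07). Clcf1, a gp130 ligand, was at 18.9 and 25.1 CPM, and Ebi3, the partner chain of interleukin 27, at 110 and 129 CPM. None of 3 counted receptors of that family passed 2-fold; Lifr, the receptor chain for LIF, was at 23.5 and 15.1 CPM (-0.64, -0.85 to -0.43). Of the interleukin 10 family, 0 of 6 other ligands had 20 UMIs, and 1 of 2 counted receptors, Il20rb, was higher, with 14 and 30 UMIs. The 4 receptor-shedding genes stayed within 2-fold, with Adam17, the main sheddase of the interleukin 6 receptor, at 198 and 216 CPM.

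Among 10 JAK kinases and STAT factors 1 was over 2-fold higher, where 1.33% of all macrophage genes were. This was Stat4 (3.55 and 9.06 CPM, ratio 1.35, 0.95 to 1.77). Of 15 counted inhibitors and phosphatases none passed, and the highest of them by size, Socs1, an inhibitor of interferon and other cytokine signals, was at 32.2 and 54.0 CPM (0.74, 0.60 to 0.89). The list's median ratio was -0.02 beside -0.10 for all genes.

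Of 20 genes known as STAT3 targets in various cells, 19 were counted in macrophages. The acute-phase gene Saa3 alone passed 2-fold (12.9 and 32.2 CPM, ratio 1.32, 1.11 to 1.54), where 1.33% of all macrophage genes were higher and 1.29% lower. Fgl2, a secreted and membrane-bound prothrombinase, was at 499 and 935 CPM (0.91) and the angiogenic factor Vegfa at 382 and 684 CPM (0.84). The median of the list was -0.04, beside -0.10 for all genes. In endothelial cells 6 of 17 counted targets were over 2-fold lower (Cebpd, Myc, Vegfa, Timp1, Fgl2 and Lcn2, named after their values were seen) and 0 higher, where 4.73% of all genes were lower and 3.16% higher. The list median was -0.59 beside -0.02 for all genes, with Lcn2, which had 34 and 0 UMIs, taken at its bound of at least 9.46-fold lower against 3 UMIs. Cebpd, a C/EBP factor, was at 273 and 119 CPM there (-1.20, -1.76 to -0.66), whereas the intervals of Vegfa (-2.67 to 0.13) and Timp1 (-2.60 to 0.23) included 0. Dissociation stress genes in endothelial cells had a median of -0.30, with 0 of 14 past 2-fold and Atf3 at 671 and 375 CPM (-0.84, -1.16 to -0.53), and their part in these values was not tested. In fibroblasts 1 of 17 passed, Pim3, which was higher (as were 2.8% of all genes), and the median was 0.37 beside -0.06. Tumor cells (20 counted), monocytes (19) and T cells (16) each had 1 target over 2-fold higher and 1 lower. Of all genes 1.5%, 1.7% and 1.28% were higher there, and 1.6%, 1.5% and 2.64% lower. In dendritic cells 0 of 14 passed (1.81% higher and 3.22% lower of all genes). List medians in these other classes lay between -0.05 and 0.03. Leaving out cells was not tried for these lists.

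The counts in this paragraph stand beside 1.33% of all macrophage genes over 2-fold higher and 1.29% over 2-fold lower. All 14 genes taken as interleukin 10 responses of macrophages were counted, and 1 was over 2-fold higher (Cd163, a scavenger receptor, 13 and 42 UMIs). The median was 0.16 beside -0.10 for all genes. Hmox1, the heme-degrading enzyme, was at 183 and 242 CPM (0.40, 0.34 to 0.47) and Il1rn, the interleukin 1 receptor antagonist, at 394 and 484 CPM (0.30, 0.25 to 0.34). Of 10 inflammatory genes listed together as inducers of interleukin 10 or as repressed by it, 2 were over 2-fold higher. These were Nos2, the inducible nitric oxide synthase, at 25.9 and 94.2 CPM (1.86, 1.72 to 2.00), and the chemokine Ccl5 at 150 and 432 CPM (1.53, 1.47 to 1.59). Cxcl1 was at 133 and 266 CPM (0.997 on the log2 scale, just inside 2-fold) and Cxcl2 at 634 and 504 CPM (-0.33, -0.37 to -0.29). Genes known to be induced by dissociation also differed between the libraries: of 14, 1 passed 2-fold (Hspb1, higher) and the median was -0.21, with Egr1 at 87.7 and 60.5 CPM, Fosb at 922 and 663 CPM and Nr4a1 at 371 and 273 CPM. Their part in the values of the 8 genes was not tested.

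The genes most like each member were taken over 14 points (7 classes in 2 libraries) by the Pearson correlation of log2(CPM + 1), among 13148 genes; the points share 2 libraries and the same gates, so r is a description. Closest to Il6 were Timp3 (r = 0.986), an inhibitor of metalloproteinases, Nox4 (0.984) and Serping1 (0.976). Il6st was nearest to Plxna4 (0.971), Zfp521 (0.971) and Prnp (0.964). Il10 had weaker neighbours, Tlk1 (0.911), Ms4a4a (0.908) and Ticam2 (0.897). Il6ra was nearest to Atp6v0d1 (0.968), Rassf4 (0.963) and Gm34084 (0.958), Il10ra to Plek (0.991), Snx20 (0.985) and Pik3ap1 (0.983), and Il10rb to Ets2 (0.982), Ppp1r12c (0.958) and Furin (0.954). For Stat3 they were Ctsw (0.978), the T cell receptor constant gene Trac (0.954) and Kmt2e (0.952), and for Socs3 Ifnar2 (0.977), Tgm2 (0.957) and Slc7a7 (0.957).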

How the data were processed

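A pair of 10x Genomics droplet libraries of dissociated MC38 tumors, 1 per host genotype, were analysed, each from about 10000 sorted live cells; they were pooled for sequencing. The deposited matrices hold UMI counts per gene and droplet, which the authors made with Cell Ranger (2.1.1 and mm10 in the submitters' processing notes) and did not normalize. Library totals were 98582479 and 80648345 UMIs. Cells were kept at 500 genes, 1000 UMIs and at most 15% mitochondrial UMIs; Scrublet doublets (2.82% and 2.37% of cells) were kept and removed only as an alternative. Kept cells were classed by summed marker UMIs per 10000 UMIs of a cell. The limits of the gates were set after seeing the data, and the rule that gives a cell past both the endothelial and the pericyte limit to the higher score was added after values of the 8 genes had been seen. Clusters came from 2000 variable genes without the 8 members, 30 principal components, 20 neighbours and Louvain clustering at resolution 1.5 (igraph 0.11.9, scanpy 1.11.5), giving 28 clusters. CPM used the UMIs of a class; intervals were exact 95% Poisson, binomial or Clopper-Pearson intervals (scipy 1.17.1), and they cover counting error only. With 1 library per genotype there was no test and no replicate. Ratios were counted past 2-fold for genes with at least 20 UMIs. The interval code was tested on simulated Poisson counts, the model that the intervals assume, so an uneven spread of UMIs over cells was not covered. In 12235 genes of the macrophage comparison, 98.9% of 94 genes changed by 1 on the log2 scale had the right sign. Intervals held the true value for 97.9% of these genes. They did so for 93.4% of 106 genes changed by 2 and for 95.6% of unchanged genes. edgeR 4.0.16 was used only for TMM factors. The members and gene lists were chosen with earlier results of these data known. Named were the 8 members, Lmo7, class markers, from each list at most 4 genes with the largest ratio among those with 100 UMIs in macrophages, and the 3 genes most like each member; genes behind counts of 5 or fewer (such as Cntf, Il20rb, Cd163 and Pim3) and Lif and Il11 in fibroblasts were named after their values were seen. A gene that the naming rule would list is not reported here.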

Additional observations from a re-analysis of the deposited data

Results flagged for a closer look

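The ratio of Il6 between the libraries pointed in opposite directions in different classes, with intervals that exclude 0: -0.94 in tumor cells and -0.84 in endothelial cells against 0.81 in monocytes. Il6st did so too, at -0.14 in tumor cells and -1.05 in endothelial cells against 0.65 in fibroblasts. Without the 3 highest cells of each library, Il6 in monocytes was at 0.55 (-0.41 to 1.53), an interval that includes 0. Il6st in endothelial cells was then at -0.53 (-0.98 to -0.09). The other ratios named here kept their sign and intervals that exclude 0. These differences between classes were not tested, since there is 1 library per genotype.

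The pericyte gate (17 and 6 cells), which is too small for the comparisons above, held 45 and 25 Il6 UMIs, or 994 CPM (725 to 1330) and 972 CPM (629 to 1435). Il6st was at 420 and 467 CPM in these cells.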

How the results depend on the processing

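No paired analysis was possible because there is 1 library per genotype. Of 188 values recomputed under alternatives, 151 stayed within the counting interval or spread of the reported value and 37 did not. No ratio whose interval excluded 0 in the reported setting changed sign. Ratios whose reported interval included 0 could do so, as did Il10 in monocytes and Il6 in fibroblasts. Alternatives for classes other than macrophages, and leaving out the 3 cells with the most UMIs, were chosen after seeing the data. In macrophages no ratio passed 2-fold under any alternative, and Il10 stayed below 0 in 10 of 10. Stricter gates gave -0.45 for Il10, -0.12 for Il6st and 0.021 for Il6ra; thinned cells gave -0.37 for Il10; weighting each cell equally gave -0.34 for Il10 and 0.054 for Il6ra. TMM scaling, which moved the median of all genes from -0.10 to 0.00, gave -0.14 for Il10, 0.027 for Il6ra, 0.13 for Il10ra, 0.025 for Il10rb, 0.32 for Stat3 and 0.13 for Socs3.

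For Il6 in fibroblasts the ratio was -0.73 with stricter gates, 0.47 with clusters, 0.46 thinned, 0.57 with equal weights and 0.19 without the 3 highest cells. In endothelial cells equal weights gave -1.34 for Il6 and -0.50 for Il6st, and Il6st was -0.53 without the 3 highest cells. Il10 in monocytes was -0.30 with stricter gates, -0.93 with clusters and 0.48 without the 3 highest cells. In T cells Il10 was -0.024 when thinned and -1.33 without the 3 highest cells. The cause of these shifts was not tested.

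Stricter gates, which admit fewer cells by construction, lowered the stromal share of Il6 UMIs to 45.4% and 33.7% and the macrophage and monocyte share of Il10 UMIs to 50.4% and 62.4%; fibroblast and endothelial clusters gave 59.7% and 70.7% for Il6, which turned the order of the libraries, and clusters gave 89.5% for Il10 in the Lmo7+/+ library. The Il10 share was 89.2% and 90.9% with the strict filter on cells, 89.6% and 90.8% without doublets, and 87.6% with the lenient filter in the library labelled Lmo7-/-. Genes past 2-fold in macrophages numbered 321 at 20 UMIs, 154 at 50 and 87 at 100. Fewer genes could be compared in the small classes: in fibroblasts and endothelial cells 5 of the 8 genes reached 20 UMIs.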

Other observations

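Smaller gates held values that belong to no comparison. Mature dendritic cells (31 and 26 cells) had 11 and 2 Il6 UMIs, with Il10ra at 121 and 146 CPM, and Il6ra at 2 and 0 UMIs where other dendritic cells held over 100 CPM. Mast cells (6 and 17 cells) had 3 and 7 Il6 UMIs and 2 and 7 Il10ra UMIs. NK cells (65 and 38 cells) had 0 UMIs of Il6, Il6ra and Il10 in either library, which allows up to 21 and 39.7 CPM at 3 UMIs. Among conventional CD4 T cells (41 and 52 cells) Socs3 was at 58.9 and 121 CPM. In fibroblasts, 2 other gp130 ligands differed between the libraries: Lif had 42 and 79 UMIs (ratio 1.10, 0.54 to 1.68), and Il11 had 21 and 1 UMIs (ratio -4.20, -9.57 to -1.56). They were the only 2 of 10 listed ligands with at least 20 UMIs there. Of all fibroblast genes, 2.8% were over 2-fold higher and 5% over 2-fold lower. Leaving out single cells was not tried for Lif and Il11.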
